A study of Arabidopsis thaliana with 43 samples.

Results

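The embryonic transcriptome of Arabidopsis thaliana (thale cress) was compared at the ends of morphogenesis, the span over which a ball of cells becomes an embryo with cotyledons, a shoot meristem and a root pole. The libraries were chosen by their stage labels: 3 preglobular and 3 late heart libraries, 6 of the 43 in the series, with every annotated locus kept. Both groups were wild-type embryos of the ecotype Col-0. Each library came from 50 pooled embryos, taken from plants 4 weeks old that grew in a chamber at 20 to 22 °C under 16 h of light and 8 h of dark. Preglobular embryos were at the 8-cell to 16-cell stage. RNA was extracted with TRIzol and made into libraries by Smart-seq2, which primes on poly(A) tails and amplifies whole cDNAs, and the amount of RNA that went in is unknown per the labels. The labels call the 3 libraries of a stage biological replicates. By the labels the groups differ in stage, and globular and early heart libraries, 3 each, are used below only to show the course between the ends.

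As background, the preglobular embryo already has distinct cell lineages: WUSCHEL-related homeobox (WOX) factors mark the apical and basal daughters of the zygote, and auxin carried by PIN proteins sets up the axis. From the globular stage on, the outer layer, the vascular core and the root founder cells are laid down. At the heart stage the cotyledons grow out on either side of the shoot meristem, with upper and lower faces specified by HD-ZIP III, KANADI and YABBY factors, and plastids begin to turn into chloroplasts. The maturation programme, which fills the seed with oil and storage protein, follows after these stages.

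The 6 libraries held 24653935 to 28234019 estimated counts each. Spike-in RNAs of known sequence took 3.03%, 4.98% and 3.80% of counts in preglobular libraries 1 to 3 and 0.802%, 0.460% and 0.599% in late heart libraries 1 to 3. LEC1, a regulator of embryo development, was present in every library. In CPM, counts scaled to library size, it stood at 324, 339.8 and 357 at preglobular and 182, 197 and 224 at late heart. On log2(CPM + 1), the late heart libraries correlated with each other across loci at 0.994 to 0.996 and the preglobular libraries at 0.977 to 0.981. Across the stages the correlation was 0.857 to 0.898. These values run across loci, which are not independent replicates.

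Preglobular libraries 1 and 3 stood apart from library 2 in transcripts known from pollen. The summed level of 21 pollen genes, listed after their values had been seen, was 533, 19.7 and 529 CPM in preglobular libraries 1 to 3. It was 18.9, 342 and 148 CPM in the globular libraries and 19.1 to 20.2 CPM in the late heart libraries. Of the 21 genes, 16 were called lower at late heart, beside 25.8% of all tested loci, 0 were called higher and 5 were not called; in a fit of the 6 libraries alone, 8 were called lower. In all, 206 tested loci stood more than 10-fold higher in both libraries 1 and 3 than in library 2, and 198 of them were called lower. The choice of loci high in these preglobular libraries itself favours a lower call, so the 198 is a description only. What part the 206 loci have in the falls below was not tested. With library 2 as the only preglobular library, 1 of the 21 pollen genes was called, in the other direction. Listed markers of the tissues beside the embryo had similar sums in both groups: 8 endosperm genes summed to 1.22 to 3.81 CPM at preglobular and 2.44 to 2.67 CPM at late heart. ESF1.2, an endosperm-side peptide gene outside this list, stood above that sum in preglobular library 1 and is given below. For 7 seed coat genes the sums were 22.9 to 26.5 and 22.1 to 23.3 CPM. Members moved in opposite directions within both lists, so similar sums do not mean an equal signal of these tissues. Means at preglobular and late heart were 19.05 and 12.3 CPM for MUM4, 4.26 and 2.03 for BAN, and 0.136 and 7.82 for TTG2. Of the endosperm genes FWA went from 1.17 to 0.326 CPM and ZOU from 0.2865 to 1.38 CPM. What the neighbouring tissues contributed was not tested. The late heart libraries held 0 counts of 2 of the 8 endosperm genes, AGL36 and IKU2, and of 2 of the 21 pollen genes.

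**Figure D1:**
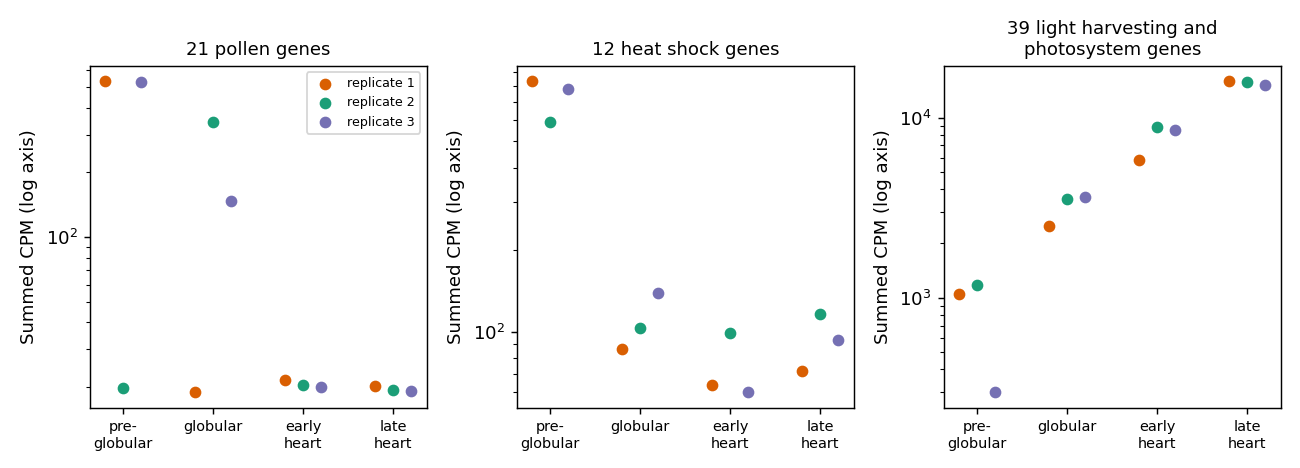
Summed level in CPM, on a log axis, of 21 pollen genes, 12 heat shock genes and 39 light harvesting and photosystem genes in each library of 4 stages, coloured by replicate number. The pollen genes are high in preglobular libraries 1 and 3 and globular libraries 2 and 3, the heat shock genes are highest in all 3 preglobular libraries, and the photosystem genes rise from stage to stage with preglobular library 3 the lowest.

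Of 32507 loci, 21014 had enough counts to be tested, and 11197 of these (53.3%) were called different between late heart and preglobular at an adjusted p under 0.05. More loci rose than fell by a small margin, 5781 (27.5%) against 5416 (25.8%), and the median log2 fold change over all tested loci was 0.05. Both shares are the background for each count of list members below, and no list was tested as a set. With a change of at least 2-fold required by the test itself, 3982 loci (18.9%) remained, 2173 higher and 1809 lower. The libraries of the 2 stages did not overlap at 14072 tested loci (67%). The scale matters for this split. On TPM, the share of transcript molecules after division by length, the median moved to 0.52 on log2(TPM + 1), and limma called 11806 loci higher and 2307 lower. The counts were therefore read relative to the TMM scaling, which sets the bulk of loci to no change, and each gene group below whose direction differs on the TPM scale is given with both. Since whole embryos were pooled, fewer cells of a type and less RNA per cell cannot be told apart.

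The transcript pool, with ribosomal RNA kept in it, became less concentrated. The 10 most abundant loci held 16.7% ± 1.75 of TPM at preglobular and 9.56% ± 0.432 at late heart (SD, n = 3 each), and the 100 most abundant held 40.0% ± 1.87 and 28.5% ± 0.845. AT2G01021, the most abundant locus at both stages, fell from a mean TPM of 85850 to 40170. AT3G41768, a locus of ribosomal RNA, fell from 10480 to 5633. Of the preglobular top 10, only AT2G40205 rose, from 4912 to 5106. Whether the pool without AT2G01021 and AT3G41768 became less concentrated was not tested. Loci with a TPM of at least 1 numbered 16051, 15506 and 15356 in the preglobular libraries and 17132, 17071 and 17031 in the late heart libraries. The groups did not overlap in these 3 measures, and the exact two-sided permutation test gave p = 0.1 for each, the smallest that 3 libraries against 3 allow. At a TPM of at least 0.1 they overlapped, with 20520, 22481 and 19810 loci against 21550, 21488 and 21620 (exact permutation p = 0.4).

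**Figure D2:**
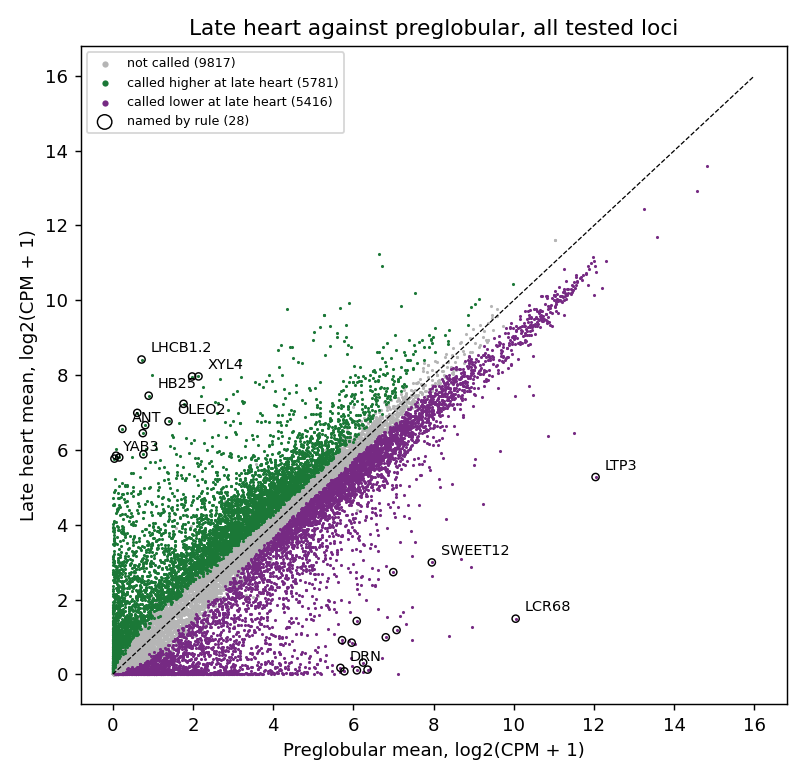
Mean level at late heart against mean level at preglobular, both as log2(CPM + 1), for the 21014 tested loci, with loci called higher in green, lower in purple and the 28 loci named by rule circled. The dashed line marks equal levels; called loci lie on both sides of it, and the most abundant loci lie mostly below it.

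Genes were picked for naming by size: loci with a symbol, a mean of 50 CPM or more in 1 group and libraries that did not overlap. The largest rises included regulators of leaf-like organs, chlorophyll proteins and wall enzymes. YAB3 (AT4G00180), a YABBY factor of the lower organ face, had 0.0453, 0.0448 and 0 CPM in the preglobular libraries, 2 counts in all, and 54.6, 52.3 and 53.3 CPM in the late heart libraries. The ratio of its counts was 1755 with a 95% counting interval of 486 to 14500. ANT (AT4G37750), an AP2 factor that promotes organ growth, went from 0.544, 0 and 0 to 98.3, 97.7 and 84.2 CPM (log2 change 8.96, SE 0.64, adjusted p = 1e-09). Preglobular library 1 alone held ANT counts, so the fold rests on it. Growth-regulating factor GRF5 (AT3G13960) went from 1.36, 0.224 and 0 to 124, 123 and 132 CPM (log2 change 7.88, SE 0.51, adjusted p = 2.5e-10). Without preglobular library 1, the highest of its group, the log2 fold change of GRF5 was 10. The zinc finger homeodomain gene HB33 went from 0, 0.359 and 0 to 57.9, 46.8 and 59.3 CPM and its relative HB25 from 1.63, 0.717 and 0.234 to 183, 171 and 167 CPM. The rule took only loci whose preglobular and late heart libraries did not overlap, as at 67% of all tested loci. The separation of these genes is therefore set by the choice. BCAT-1, a branched-chain amino acid aminotransferase, was at 0, 0.179 and 0 CPM at preglobular, 4 counts in all, and at 56.1, 59.0 and 54.3 CPM at late heart.

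The other rises of this set were of metabolism and the cell wall. LHCB1.2 (AT1G29910), an antenna protein of photosystem II, went from 0.589, 1.25 and 0.0937 to 231, 393 and 398 CPM (log2 change 9.02, SE 0.85, adjusted p = 3.2e-08), and its close paralogs share reads, so its own share is uncertain. Without preglobular library 2 its log2 fold change was 9.90. LHCB2.2, PORB, the light-dependent enzyme of chlorophyll synthesis, and OLEO2, an oil body protein, rose by 6.36, 6.39 and 6.04 on the log2 scale. LHCB2.2 rose by 7.34 without preglobular library 1 and OLEO2 by 7.12 without library 2. XYL4, a beta-xylosidase of the wall, reached 249 ± 33.4 CPM, the water channel PIP2;8 reached 149 ± 3.04 CPM, and the SKU5-like gene sks4 reached 100.2 ± 4.67 CPM, each from under 4 CPM on average. The defensin-like gene LCR69 rose from 0.682 ± 0.187 to 86.3 ± 7.4 CPM (SD, n = 3).

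The falls of the same rule were headed by transcripts known from pollen. The sks13 gene stood at 122, 0.673 and 120.1 CPM in preglobular libraries 1 to 3 and at 0.115, 0.0287 and 0.129 CPM at late heart, PGA4, a polygalacturonase, at 90.3, 0.493 and 70.6 CPM, and VGD1, a pectin methylesterase of pollen tubes, at 106, 1.17 and 94.5 CPM. With only library 2 kept at preglobular, their log2 fold changes were −2.89, −3.00 and −3.85 and none was called (adjusted p = 0.412, 0.503 and 0.242). PGA4 also moved with late heart library 1 left out, to −11.35. The other 11 falls were seen in all 3 preglobular libraries. LCR68 (AT2G02130), a defensin-like peptide gene, stood at 612, 1035 and 1525 CPM and ended at 1.9, 1.58 and 1.94 CPM (log2 change −9.19, SE 0.58, adjusted p = 1.9e-10). LTP3 (AT5G59320), a lipid transfer protein, was the most abundant of them at 4414, 4195 and 4014 CPM and ended at 34.9, 37.5 and 40.7 CPM (log2 change −6.80, SE 0.33, adjusted p = 1.2e-11). DRN (AT1G12980), an AP2 factor of the early apical embryo, went from 44.0, 48.4 and 58.1 to 0.172, 0.144 and 0.0645 CPM (log2 change −8.55, SE 0.65, adjusted p = 2.2e-09). SWEET12, a sucrose exporter, went from 145, 272 and 325 to 4.25, 6.84 and 9.77 CPM.

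Of these 11 falls, 9 shared an order among the preglobular libraries, with library 1 lowest and library 3 highest. LCR68, DRN and SWEET12 showed it above, COBL6, of the COBRA-like wall proteins, stood at 73.5, 143 and 185 CPM, and PAP20, a purple acid phosphatase, at 46.1, 77.9 and 100.4 CPM. PAB5, a poly(A)-binding protein, stood at 88.7, 123 and 168 CPM. The defensin-like gene SCRL26, the glutamate decarboxylase GAD and the regulator MYB62 had the same order, with log2 fold changes of −6.25, −5.87 and −5.30. The amino acid export gene GDU4 was also lowest in library 1, at 76.1, 130.5 and 127 CPM. In the opposite order, some genes that peak at the globular stage were highest in library 1: DRNL, the paralog of DRN, stood at 26.8, 6.28 and 1.36 CPM, and the boundary gene CUC1 at 5.85, 1.08 and 0.984 CPM. What set the libraries apart was not tested.

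Genes of the earliest lineages fell. Of 9 lineage and zygote regulators 7 were tested, 6 were called lower (25.8% of all tested loci were), 0 higher, and the median log2 fold change was −1.58. WOX8 (AT5G45980), a factor of the basal lineage, went from 23.3, 39.6 and 52.4 to 0.546, 0.69 and 0.839 CPM (log2 change −5.79, SE 0.39, adjusted p = 1.3e-09). WOX2 (AT5G59340), its apical counterpart, went from 62.8, 98.1 and 99.0 to 5.00, 6.78 and 6.71 CPM (log2 change −3.81, SE 0.27, adjusted p = 7.5e-10). Both groups were fully separate for both genes, as at 67% of all tested loci. Most of the fall had taken place by the globular stage, where the means were 4.32 and 22.4 CPM. WOX9 fell less, from 88.3 ± 18.4 to 29.6 ± 3.6 CPM, and WRKY2, which acts upstream of WOX8, fell by 2.29 on the log2 scale. YDA, the kinase of zygote elongation, was at 28.4 ± 4.99 and 29.4 ± 1.36 CPM and was not called. With log2(TPM + 1), 4 of the 7 were called lower and 1 higher.

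Auxin transport genes fell in part. Of 9 tested, 6 were called lower, 0 higher and 3 were not called, beside 25.8% of all tested loci called lower, with a median of −0.92; on log2(TPM + 1) the split was 3 higher and 4 lower. PIN7, which acts from the basal cell, fell from 30.2 ± 7.1 to 9.56 ± 1.08 CPM, and the influx carrier LAX1 from 60.7 ± 7.22 to 15.4 ± 2.96 CPM. LAX3, another influx carrier, was low at preglobular, at 0.907, 1.12 and 1.92 CPM, and had 0 counts in the 3 late heart libraries. LAX2 stayed high, at 151 ± 29.0 and 195 ± 11.4 CPM, and was not called. Auxin synthesis genes went both ways, 3 higher and 3 lower of 8 tested. TAA1, of the first step of synthesis, fell by 1.34 on the log2 scale while its relative TAR2 rose by 1.14. YUC9 fell from 5.44 ± 1.61 to 0.211 ± 0.136 CPM and YUC8 rose from 1.09, 0.538 and 0 to 2.67, 4.54 and 3.39 CPM. IAMT1, which methylates auxin, rose from 3.31, 2.78 and 0.375 to 80.6, 104 and 129 CPM (log2 change 5.59, SE 0.39, adjusted p = 7.5e-10), with 83.3 CPM already reached at globular. Of the response factor MP and its partners BDL and IAA10, 1 was called higher, and with RLE size factors 1 was called lower instead. BDL was at 39.3 ± 2.76 and 50.3 ± 1.82 CPM (adjusted p = 0.021, and 0.055 to 0.12 with preglobular library 2 or 3 or late heart library 2 or 3 left out). MP was at 286 ± 29.6 and 218 ± 28.9 CPM (adjusted p = 0.053).

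Shoot meristem and organ boundary genes went both ways. Of 14 shoot meristem and organ boundary genes, all tested, 7 were called higher and 5 lower, beside 27.5% and 25.8% of all tested loci. STM (AT1G62360), the homeobox gene that keeps the shoot meristem undifferentiated, had 0 counts in the 3 preglobular libraries and stood at 16.0, 13.3 and 13.3 CPM at late heart, at least 312-fold higher against a floor of 3 counts over the group. CLV3, the peptide that limits the stem cells, also had 0 counts and rose to 3.39, 2.93 and 3.55 CPM, at least 71.9-fold higher. Its receptor CLV1 rose from 1.38 ± 0.318 to 20.4 ± 4.45 CPM. The related homeobox genes BP and KNAT2 rose from 0.245 ± 0.219 to 7.56 ± 2.95 and from 0.615 ± 0.586 to 9.46 ± 0.276 CPM, and KNAT6 rose by 1.06 on the log2 scale. WUS, the stem cell organiser, was low throughout and fell from 3.1 ± 0.699 to 0.753 ± 0.0784 CPM (log2 change −2.03, SE 0.45, adjusted p = 0.00074).

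Some genes, chosen after their values were seen, were highest at a stage between the ends. CUC1, CUC2 and CUC3 keep the cotyledons apart. CUC1 had means of 2.64, 46.8, 27.5 and 8.45 CPM from preglobular to late heart and was called higher (log2 change 1.68, SE 0.46, adjusted p = 0.004); without preglobular library 1 its log2 fold change was 2.99. CUC2 and CUC3 were called lower, with log2 fold changes of −2.03 and −1.67, and had their highest mean at globular, 48.9 and 22.4 CPM. DRNL, which acts in the young cotyledons, ran 11.5, 77.2, 38.7 and 7.41 CPM and was not called (adjusted p = 0.38). YAB5 ran 2.47, 43.0, 44.4 and 19.9 CPM. AHP6, a brake on cytokinin signalling in the vascular core, ran 6.75, 57.1, 31.2 and 16.1 CPM. It was called higher, with an adjusted p of 0.013, and was not called without preglobular library 2 (adjusted p = 0.0579). GRF2 ran 82.7, 160, 129 and 86.1 CPM and was not called either (adjusted p = 0.82).

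**Figure D3:**
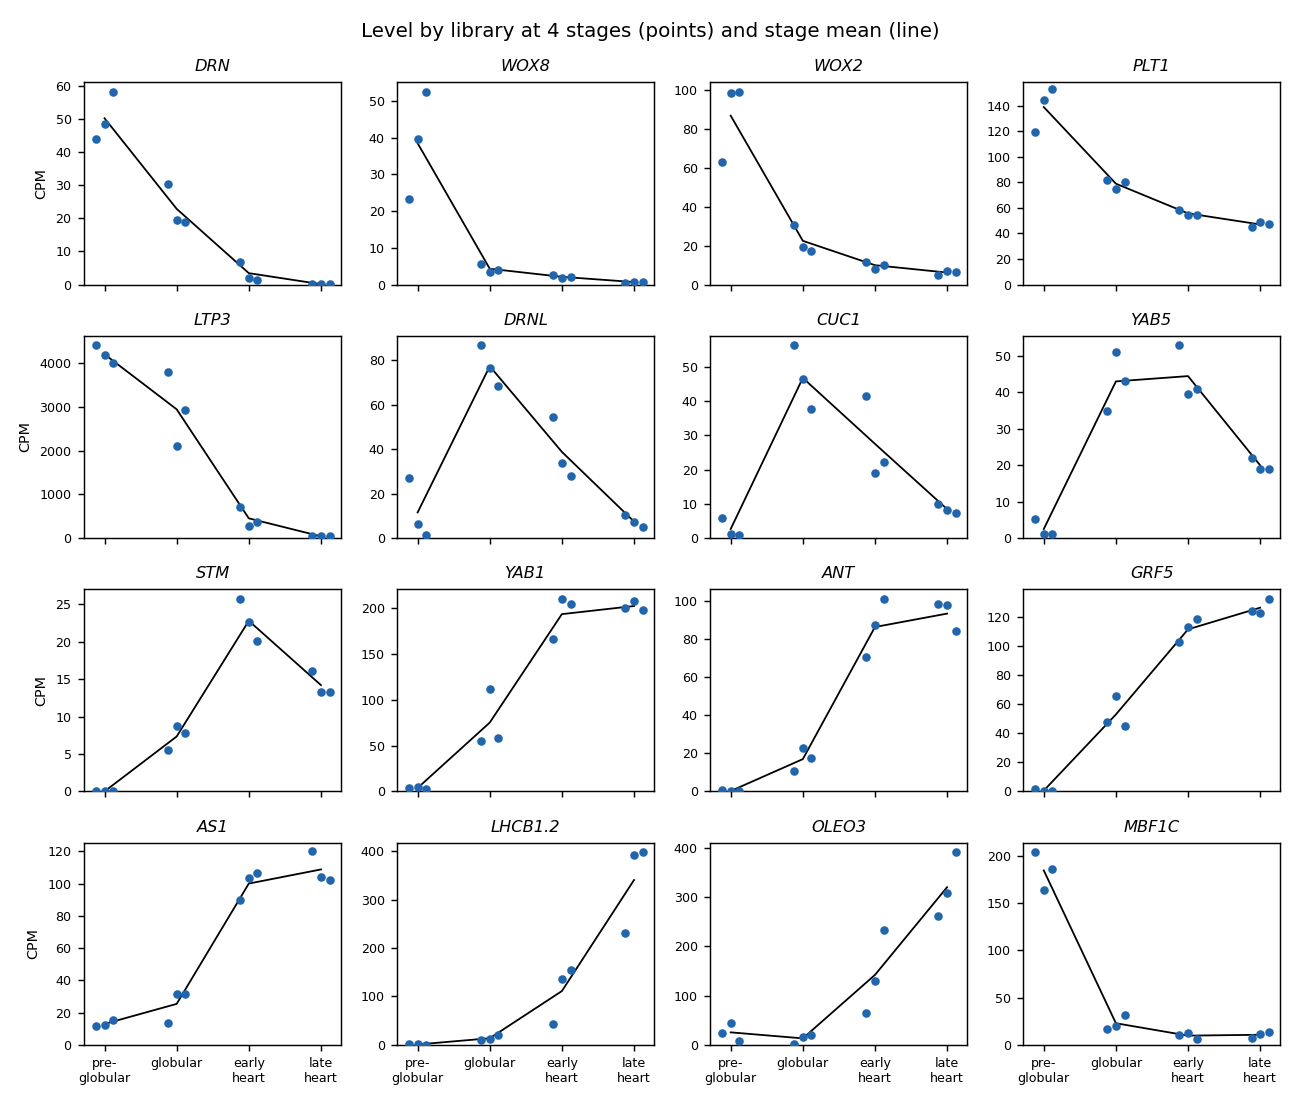
Level in CPM of 16 genes in each library (points) and their stage means (lines) at preglobular, globular, early heart and late heart, each panel on its own scale from 0. DRN, WOX8, WOX2, PLT1, LTP3 and MBF1C are highest at preglobular, DRNL and CUC1 peak at globular, STM at early heart, and AS1, GRF5, LHCB1.2 and OLEO3 are highest at late heart.

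Genes of organ faces mostly rose. All 14 organ polarity genes were called, 11 higher and 3 lower, beside 27.5% and 25.8% of all tested loci, with a median log2 fold change of 2.00. YAB1 (AT2G45190), a marker of the lower face, went from 3.49, 4.62 and 3.09 to 201, 209 and 198 CPM (log2 change 5.76, SE 0.24, adjusted p = 2.3e-12). YAB2 had 2 counts at preglobular and reached 15.5, 14.2 and 17.9 CPM, a count ratio of 519 with a counting interval of 143 to 4286. The KANADI genes of the same face, KAN1, KAN2 and KAN3, rose by 1.86, 2.14 and 4.19. AS1, which represses meristem genes in young organs, rose from 11.4, 12.3 and 15.1 to 120.0, 104 and 102 CPM (log2 change 3.07, SE 0.25, adjusted p = 4e-09), and its partner AS2 from 2.98 ± 1.56 to 8.65 ± 0.203 CPM. Among the HD-ZIP III genes, PHV and ATHB8 were called higher and PHB, REV and CNA lower. CNA had the largest fall, from 65.3 ± 17.2 to 17.1 ± 2.63 CPM. PHB was at 91.0 ± 14.2 and 60.4 ± 5.87 CPM, and on log2(TPM + 1) PHB and REV turned direction and were not called.

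Of 22 organ growth genes 16 were called higher and 3 lower, beside 27.5% and 25.8% of all tested loci. The median was 1.52, and on log2(TPM + 1) 19 were higher and 0 lower. Besides ANT, its relatives AIL5 and AIL6 rose by 1.26 and 1.79, while AIL7 fell by 1.02 on counts and was at −0.25 and not called on log2(TPM + 1) (adjusted p = 0.27). GIF1, the coactivator of the growth-regulating factors, rose from 96.1 ± 18.0 to 394 ± 9.23 CPM (log2 change 2.04, SE 0.17, adjusted p = 7.7e-09). GRF4 and GRF6 rose by 4.23 and 5.04. JAG, which drives organ outgrowth, had 1 count at preglobular and stood at 24.1, 22.5 and 19.5 CPM at late heart. The TCP genes, which restrain growth, were low. TCP2 and TCP24 rose to 11.4 ± 0.244 and 13.1 ± 0.872 CPM.

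Root founder genes went both ways. Of 13, all called (53.3% of all tested loci were), 7 were higher and 6 lower. The AP2 factors of the stem cell niche were called lower: PLT1 went from 119, 145 and 153 to 45.3, 48.8 and 47.0 CPM (log2 change −1.56, SE 0.22, adjusted p = 6.2e-06), PLT2 fell by 1.00 and BBM by 0.92 on the log2 scale of counts. WOX5, the marker of the quiescent centre, fell from 38.9 ± 6.36 to 17.7 ± 2.02 CPM, and NTT from 14.5 ± 2.83 to 6.27 ± 0.26 CPM. PLT2, BBM and NTT were not called on log2(TPM + 1) (adjusted p = 0.344, 0.386 and 0.0882). TMO7, the mobile factor that recruits the root founder cell, went from 0.181, 0.0448 and 0 to 15.4, 21.5 and 21.4 CPM (log2 change 7.90, SE 0.41, adjusted p = 1.7e-11; log2 change 9.40 without preglobular library 1). SMB, of the root cap, had 0 counts at preglobular and 4.89, 7.38 and 11.2 CPM at late heart, at least 168-fold higher, and FEZ, which acts with it, rose to 12.8 ± 1.81 CPM. The ground tissue genes SCR and JKD rose by 0.83 and 1.07 on the log2 scale, while SCZ went from 7.62, 2.96 and 0.234 to 25.1, 30.6 and 28.4 CPM. The TPM scale gave 7 higher and 2 lower calls.

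In the vascular list, 4 of 8 were called higher and 2 lower, beside 27.5% and 25.8% of all tested loci. LHW, which pairs with TMO5 to drive vascular divisions, rose from 47.9 ± 2.59 to 93.9 ± 6.45 CPM, and LOG3, a cytokinin-activating enzyme under their control, from 2.46 ± 1.34 to 25.4 ± 2.97 CPM (log2 change 3.37, SE 0.31, adjusted p = 2e-08). T5L1, a close relative of TMO5, fell from 30.2 ± 4.56 to 4.3 ± 0.449 CPM.

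Transcripts of outer-layer genes were already present at preglobular. Whole embryos were pooled, so the cells that held them cannot be told. Of 11 protoderm and cuticle genes 2 were called higher and 5 lower, with a median of −0.14, whereas on log2(TPM + 1) 6 were called higher and 1 lower, so that the direction of the list turns with the scale. PDF1, a protoderm protein, was among the abundant transcripts at 3386, 3291 and 3288 CPM and fell to 1488, 1481 and 1462 CPM (log2 change −1.17, SE 0.22, adjusted p = 0.00015). ATML1, the regulator of the layer, was at 213 ± 24.6 CPM at preglobular and 130.3 ± 5.09 CPM at late heart, called lower on counts and in the other direction on log2(TPM + 1). The receptor kinase ACR4 rose from 15.4 ± 3.04 to 29.1 ± 1.73 CPM, and the cuticle exporter ABCG11 fell from 149.8 ± 7.32 to 88.5 ± 2.02 CPM on counts and was at −0.0367 on log2(TPM + 1) (adjusted p = 0.827). Of 11 stomatal lineage genes 5 were called higher and 0 lower, beside 27.5% and 25.8% of all tested loci. ER, a receptor kinase of organ shape and stomatal spacing, rose from 22.9 ± 3.9 to 213 ± 22.9 CPM (log2 change 3.21, SE 0.17, adjusted p = 1.6e-11), whereas its relatives ERL1 and ERL2 were not called. EPF2 and BASL, which act at the first stomatal divisions, were called higher and stayed near the limit of detection, at 0.899 ± 0.362 and 0.522 ± 0.154 CPM at late heart. SPCH, the factor that starts them, was at 0, 0.359 and 0 and 0.69, 0.46 and 0.613 CPM, and its call was lost with preglobular library 1 or 3 or late heart library 1 or 3 left out (adjusted p = 0.0558 to 0.124). MUTE had 0 counts in all 6 libraries.

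In the main fit a smaller share of cell division genes than of all tested loci was called, and the count moved with the fit. Of 23 mitosis genes 7 were called, beside 53.3% of all tested loci, 6 lower and 1 higher, with a median of −0.20. Of 18 DNA replication genes 14 were not called, 3 were lower and 1 higher, with a median of 0.10. On log2(TPM + 1) the called members were higher, 15 of the mitosis genes and 11 of the replication genes, with 0 lower, so neither list has a direction that holds on both scales. When the fit held the 6 libraries alone, 12 mitosis genes (3 higher, 9 lower) and 13 replication genes (7 higher, 6 lower) were called. The fit of 12 libraries gave the same counts. Over all loci the fits of 6 and 12 libraries called 11880 and 12422, and log2(TPM + 1) called 14113 of 21014. CDKB1;2 fell from 69.2 ± 4.23 to 36.7 ± 2.36 CPM and PCNA1, the sliding clamp of replication, from 237 ± 9.76 to 132 ± 4.69 CPM, and neither was called on log2(TPM + 1) (adjusted p = 0.194 and 0.49). Of 16 tested core histone genes 12 were lower and 2 higher, and of 15 tubulin genes 9 were lower and 1 higher; on log2(TPM + 1) the calls were 3 higher and 1 lower for histones and 4 higher and 2 lower for tubulins. HTB4 fell from 1497 ± 106 to 742 ± 36.3 CPM. HTA12 and TUB5 went against their families, HTA12 from 9.31 ± 0.977 to 21.8 ± 3.01 CPM and TUB5 from 1.63, 1.12 and 1.03 to 19.5, 16.7 and 18.4 CPM (log2 change 3.85, SE 0.49, adjusted p = 1.5e-06).

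The D-type cyclins, which start the cell cycle, were called in both directions. Of 10 tested, 4 were called higher and 3 lower, beside 27.5% and 25.8% of all tested loci. Whether the list differs from all loci was not tested. CYCD1;1 rose from 1.09, 1.34 and 0.141 to 27.0, 30.1 and 35.05 CPM (log2 change 5.14, SE 0.35, adjusted p = 5.7e-10) and CYCD5;1 by 1.14. CYCD4;1 fell from 19.6 ± 4.8 to 6.76 ± 1.04 CPM, and CYCD7;1 from 3.04, 0.493 and 6.23 CPM, highest in libraries 1 and 3, to 1 count in the late heart libraries. With preglobular library 2 alone CYCD7;1 was not called (log2 fold change −5.07, adjusted p = 0.0719). The most abundant member, CYCD3;2, was at 271 ± 5.67 and 327 ± 21.1 CPM and was not called. Of 9 cell cycle brakes 3 were higher, 2 lower and 4 not called, beside the same shares of all tested loci. KRP5, a kinase inhibitor, fell from 25.7 ± 3.2 to 11.6 ± 1.39 CPM, and KRP6 rose from 1.5 ± 0.765 to 3.57 ± 0.857 CPM.

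The photosynthetic apparatus rose together. Of 39 nuclear genes for light harvesting and the photosystems 38 were called higher and 0 lower, with a median log2 fold change of 4.37, beside 27.5% of all tested loci called higher. Of 14 Rubisco and Calvin cycle genes 13 rose, with a median of 3.63, and of 17 chlorophyll synthesis genes 16 rose, with a median of 3.11. The 39 genes summed to 1044, 1180 and 298 CPM in the preglobular libraries and to 15910, 15670 and 15230 CPM in the late heart libraries. Preglobular library 3 was the lowest of its group, and all late heart libraries lay above all preglobular ones. LHCB1.3 was the most abundant antenna gene, going from 115, 163 and 19.2 to 2711, 2275 and 2240 CPM (log2 change 4.60, SE 0.74, adjusted p = 2.3e-05). RBCS1A, the main small subunit gene of Rubisco, went from 125, 164 and 20.6 to 1898, 1881 and 2016 CPM (log2 change 4.23, SE 0.53, adjusted p = 1.3e-06). The photosystem I subunit gene PSAO and the photosystem II gene PSBQ2 rose by 5.57 and 5.44, and by 6.32 and 6.31 without preglobular library 2.

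In chlorophyll synthesis, GUN5, a subunit of the chelatase that puts magnesium into the ring, and GUN4, its activator, rose by 3.59 and 3.90. PORC rose from 4.13 ± 0.854 to 63.4 ± 2.18 CPM. PORA, the form of dark-grown seedlings, was at 0.0598 ± 0.104 and 0.182 ± 0.0875 CPM and was not called. GLK1 and GLK2, the factors that switch on these nuclear genes, rose from 0.544, 0.897 and 0.0469 to 16.6, 15.3 and 16.9 CPM and from 0.227, 0.314 and 0 to 3.42, 4.51 and 4.55 CPM (log2 change 5.01, SE 0.41, adjusted p = 5.3e-09 for GLK1, 5.72 without preglobular library 2). The genes of the plastid's own genome followed: 75 of 130 tested were called higher and 1 lower, beside 27.5% and 25.8% of all tested loci, with a median of 0.83. With preglobular library 2 alone 36 were higher and 2 lower, and on log2(TPM + 1) 116 higher and 0 lower. The share of TPM of the plastid genes went from 1.80% ± 0.34 to 6.47% ± 0.38 (SD, n = 3 each). Genes of the mitochondrial genome went the other way, 110 of 121 tested called lower and 0 higher, with a median of −1.86 and a share of TPM of 2.42% ± 0.20 and 1.56% ± 0.18. In the plastid and mitochondrial shares the groups did not overlap, and the exact permutation p was 0.1, the smallest possible. ATMG00020 and ATMG00030 held most of the mitochondrial share, at mean TPM of 8685 and 8480 at preglobular and 6227 and 6001 at late heart. Organelle transcripts are mostly without a poly(A) tail, which Smart-seq2 primes on, so these levels are of the part that was captured.

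Oil synthesis genes rose while most storage protein genes stayed low. Of 24 fatty acid and oil synthesis genes 18 were called higher and 0 lower, beside 27.5% and 25.8% of all tested loci, with a median of 0.90. All but 1 were called higher on log2(TPM + 1), 23 in number. The largest called rises were FAB1, a condensing enzyme, from 69.6 ± 7.93 to 229.7 ± 6.001 CPM (log2 change 1.72, SE 0.12, adjusted p = 1.1e-09), and CAC2, a subunit of acetyl-CoA carboxylase, from 166 ± 15.68 to 494 ± 22.8 CPM (log2 change 1.57, SE 0.14, adjusted p = 9.9e-09). TAG1, the last enzyme of oil assembly, rose from 42.8 ± 2.09 to 87.1 ± 3.52 CPM, and FAD3, a desaturase, by 1.44. WRI1, the regulator of these genes, rose from 46.6 ± 2.3 to 70.4 ± 11.6 CPM (adjusted p = 0.037), and its call was lost with any of 5 of the 6 libraries left out (adjusted p = 0.0605 to 0.147). FAE1, listed in the annotation as KCS18, was at 0 counts at preglobular and 0.0932 ± 0.0969 CPM at late heart and was not called.

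Of 15 storage protein and oil body genes 6 were higher, 3 lower and 6 not called, and 4 of the 6 risers were oleosins, the coat proteins of oil bodies. None of the lower calls held in the fit of the 6 libraries (6 higher, 0 lower) or of 12 (5 higher, 0 lower). OLEO3 went from 24.03, 43.4 and 8.43 to 262, 308 and 392 CPM (log2 change 3.66, SE 0.60, adjusted p = 3.3e-05), OLEO2 from 1.22, 3.36 and 0.281 to 96.3, 98.2 and 128 CPM and OLEO4 from 0.499, 0.538 and 0.0937 to 42.7, 34.6 and 44.6 CPM (log2 change 6.72, SE 0.69, adjusted p = 9.3e-08). OLEO1, the main oleosin of the mature seed, was at 3.99, 7.98 and 1.03 and 9.37, 10.5 and 20.7 CPM (log2 change 1.64, SE 0.58, adjusted p = 0.023), and was not called without preglobular library 1 or 3 or late heart library 3 (adjusted p = 0.0758 to 0.123). Without preglobular library 2 the log2 fold changes of OLEO3, OLEO2 and OLEO1 were 4.28, 7.12 and 2.39. The storage proteins were near the limit of detection: the cruciferin CRA1 reached 1.59 ± 0.919 CPM and the albumin SESA1 1.69 ± 0.25 CPM, while SESA3 and SESA4 were called lower although their libraries overlapped, at 2.77, 1.7 and 0 CPM against 0.172, 0.402 and 0.452 CPM for SESA3. The SESA3 call was lost in both of these fits (adjusted p = 0.112 and 0.119) and with 4 of the 6 libraries left out in turn, that of CRA1 without preglobular library 3 and on log2(TPM + 1) (adjusted p = 0.115), and the close copies of the albumin genes share reads. The RY motif, a seed promoter element bound by LEC2, FUS3 and ABI3, was looked for in the 250 bases before the annotated start of each gene. Its letters CATGCA, on either strand, stood in 14 of the 15 promoters (93.3%) and in 2314 of 27443 promoters of protein-coding nuclear genes (8.43%). OLEO4 is shown because it had the largest rise among the oleosins, while SESA3 and SESA4, called lower, carry the motif too. The sequence is from the RefSeq genome TAIR10.1, 5′ to 3′ on the gene's strand, with the motif in capitals.
OLEO4 promoter, chr3:10242994-10243243, plus strand: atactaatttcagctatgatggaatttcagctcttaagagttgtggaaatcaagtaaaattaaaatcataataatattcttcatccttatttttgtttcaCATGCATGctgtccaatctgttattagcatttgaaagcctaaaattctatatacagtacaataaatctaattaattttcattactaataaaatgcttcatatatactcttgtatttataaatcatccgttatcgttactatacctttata
It holds 2 matches, which overlap, and a match is a description of the letters only.

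The regulators of maturation changed in different directions. Of 18 tested 8 were higher, 4 lower and 6 not called, beside 27.5% higher and 25.8% lower of all tested loci. ABI3 rose from 34.5, 30.9 and 24.5 to 120.3, 126 and 121 CPM (log2 change 2.03, SE 0.21, adjusted p = 1.3e-07) and FUS3 from 19.2 ± 2.36 to 34.3 ± 4.97 CPM, while LEC2 fell from 25.7, 32.5 and 31.8 to 7.07, 9.65 and 9.87 CPM (log2 change −1.76, SE 0.19, adjusted p = 2.2e-07). LEC1 was called lower on counts, with a log2 fold change of −0.76, and was at −0.039 and not called on log2(TPM + 1) (adjusted p = 0.797). BZIP67 and ABI5, late seed factors, rose from below 1 CPM to 3.19 ± 0.686 and 2.07 ± 0.254 CPM. The MADS-box gene AGL15 rose by 0.68 and its relative AGL18 fell by 2.33. The calls on log2(TPM + 1) were 15 higher and 2 lower.

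**Figure D4:**
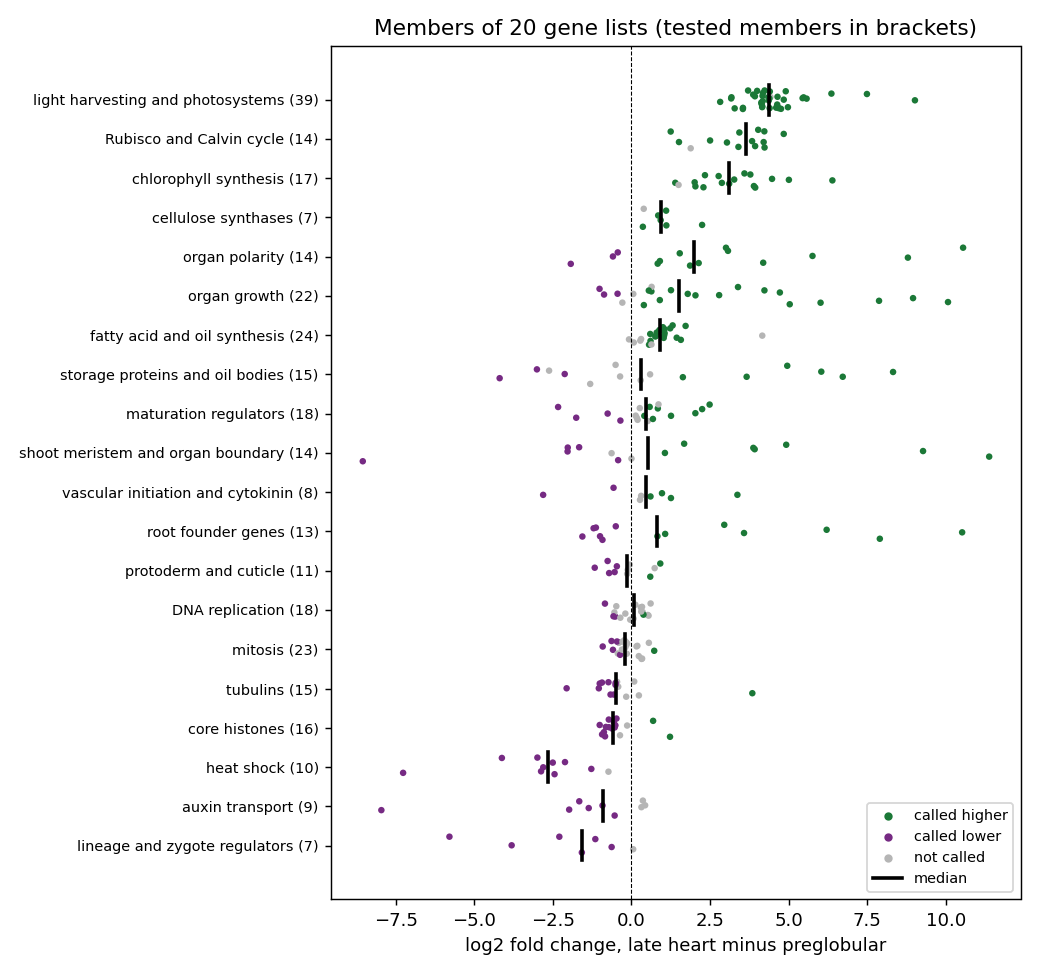
Log2 fold change, late heart minus preglobular, of the tested members of 20 gene lists (points), coloured by their call, with the list median as a black bar and the number of tested members in brackets. Light harvesting, Calvin cycle and chlorophyll genes lie to the right of 0, heat shock and lineage genes to the left, and mitosis and replication genes close to it.

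Genes of DNA methylation and of small RNA pathways were called about as often as all tested loci (27.5% higher, 25.8% lower). Of 14 methylation and demethylation genes 4 were higher and 5 lower, and of 18 tested small RNA genes 5 were higher and 5 lower; on log2(TPM + 1) the calls were 8 higher and 2 lower, and 12 higher and 3 lower. Among the glycosylases that remove DNA methylation, ROS1 rose from 20.5, 20.0 and 19.4 to 129.7, 125 and 112 CPM (log2 change 2.61, SE 0.18, adjusted p = 5.6e-10) and DML2 from 5.89, 7.8 and 6.42 to 55.6, 55.9 and 53.4 CPM (log2 change 3.03, SE 0.24, adjusted p = 3.2e-09). DML3 fell from 6.57, 11.2 and 17.38 to 0.0575, 0.115 and 0.258 CPM (log2 change −6.32, SE 0.65, adjusted p = 2.2e-07; −6.995 without late heart library 3). Among the methyltransferases CMT2 and DRM2 rose by 1.41 and 0.67 and DRM1 fell by 3.24 on the log2 scale. CMT3 fell by 0.80 on counts and was at −0.0795 and not called on log2(TPM + 1) (adjusted p = 0.775). MET1, which keeps CG methylation, was at 62.4 ± 3.00 and 59.7 ± 2.67 CPM and was not called.

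Argonaute genes, whose proteins carry small RNAs, also went both ways. AGO5 fell from 75.0, 76.2 and 75.5 to 13.6, 10.2 and 5.87 CPM (log2 change −2.93, SE 0.29, adjusted p = 5.4e-08) and AGO9 from 139, 128 and 116 to 53.8, 40.9 and 29.6 CPM (log2 change −1.62, SE 0.24, adjusted p = 1e-05). AGO1 and AGO4, the broadly used members, rose by 0.73 and 1.00. NRPD1, the large subunit of RNA polymerase IV, fell from 30.5 ± 7.22 to 12.3 ± 0.69 CPM and NRPE1, of polymerase V, rose from 31.8 ± 2.56 to 49.7 ± 4.98 CPM. Of 9 tested SPL genes targeted by miR156, 1 was called higher and 2 lower, beside 27.5% and 25.8% of all tested loci. SPL10 fell from 8.86 ± 1.7 to 3.04 ± 0.56 CPM and SPL13A went from 0, 0.628 and 0 to 3.74, 3.1 and 2.61 CPM. SPL2, the other call, was lost with 5 of the 6 libraries left out in turn and turned direction on log2(TPM + 1).

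Genes of wall growth went both ways. Of 13 tested expansins, which loosen the wall, 4 rose and 7 fell, and 4 and 5 on log2(TPM + 1). Over all tested loci 27.5% were called higher and 25.8% lower, the shares to set beside each count of this paragraph. EXPA5 rose from 11.8, 3.81 and 2.72 to 74.6, 83.6 and 84.3 CPM (log2 change 3.72, SE 0.35, adjusted p = 3.5e-08; 4.59 without preglobular library 1), while EXPA9 fell from 58.0, 66.8 and 76.0 to 3.22, 4.25 and 4.19 CPM (log2 change −4.11, SE 0.24, adjusted p = 7.5e-11). EXPA21, EXPA23 and EXPA25 fell too, and preglobular library 1 stood far above the other two, at 62.5, 6.1 and 3.28 CPM for EXPA21 and 79.4, 14.8 and 11.7 CPM for EXPA23. With library 2 alone kept, they were still called lower (adjusted p = 1.23e-06, 1.71e-05 and 2.8e-05). Of 13 xyloglucan transglucosylases 5 rose and 3 fell, XTH30 from 22.6 ± 5.84 to 1.12 ± 0.363 CPM and XTH15 from 0.423 ± 0.472 to 10.6 ± 1.74 CPM. Cellulose synthases moved one way: 6 of 7 rose and 0 fell, with a median of 0.93, among them CESA2 (2.25 on the log2 scale) and CESA6 (0.85). Of 7 tested aquaporins 4 rose and 1 fell, and PIP1;4 went from 112 ± 24.1 to 461 ± 9.71 CPM.

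Heat shock genes were high in all 3 preglobular libraries. Of 12 listed 10 were tested, and 9 of them were called lower and 0 higher, beside 25.8% and 27.5% of all tested loci. The median log2 fold change was −2.66, and 8 were lower and 0 higher on log2(TPM + 1). MBF1C (AT3G24500), a coactivator of heat tolerance, went from 205, 164 and 186 to 7.27, 11.01 and 13.6 CPM (log2 change −4.12, SE 0.36, adjusted p = 1e-08). HSFA2 (AT2G26150), a heat-induced heat shock factor, went from 103, 90.5 and 97.5 to 8.37, 13.2 and 15.0 CPM (log2 change −2.99, SE 0.49, adjusted p = 3e-05). The chaperones HSP70 and HSP90.1 went from 175, 133 and 183 to 13.8, 32.9 and 20.09 CPM and from 99.3, 89.4 and 97.1 to 11.96, 18.3 and 10.5 CPM. For these 4 genes the groups did not overlap, as at 67% of all tested loci. The globular means, 22.8, 20.07, 21.7 and 23.2 CPM, were already low. The small heat shock protein gene HSP17.4 stood at 48.0, 14.1 and 37.1 CPM and ended at 0.0862, 0.259 and 0.29 CPM (log2 change −7.26, SE 1.18, adjusted p = 2.8e-05); library 2, the one low in pollen genes, was the lowest of its group here and for HSP17.6A, at 75.2, 20.13 and 55.8 CPM. With library 2 alone kept at preglobular, 7 of the 10 were called lower, and HSP17.6A was not (log2 fold change −1.18, adjusted p = 0.331). HSP18.2 was the member not called, and HSP21 and HSFA9 had too few counts to be tested.

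The heat shock element GAANNTTC, whose letters read the same on both strands, stood in 3 of the 12 promoters (25%) and in 2621 of the 27443 (9.55%), again in the 250 bases before the start. HSFA2 and HSP17.4 are shown as the pair with 2 matches each, in capitals.
HSFA2 promoter, chr2:11135374-11135623, plus strand: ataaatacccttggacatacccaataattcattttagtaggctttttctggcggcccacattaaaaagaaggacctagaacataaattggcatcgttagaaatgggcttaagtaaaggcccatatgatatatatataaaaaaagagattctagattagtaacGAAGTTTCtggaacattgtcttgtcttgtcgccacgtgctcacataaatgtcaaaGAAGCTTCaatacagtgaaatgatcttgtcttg
HSP17.4 promoter, chr3:16984868-16985117, minus strand: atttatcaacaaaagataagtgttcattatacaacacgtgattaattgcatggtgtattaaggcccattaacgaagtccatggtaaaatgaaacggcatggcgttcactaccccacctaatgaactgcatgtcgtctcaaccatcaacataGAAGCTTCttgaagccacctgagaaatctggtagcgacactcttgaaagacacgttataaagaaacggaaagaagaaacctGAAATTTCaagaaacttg
The other 9 promoters, MBF1C and HSP70 among them, did not hold these letters in this window.

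Genes of wounding, touch and handling did not move as one. Of 7 tested 2 were higher and 3 lower, beside 27.5% and 25.8% of all tested loci. On log2(TPM + 1) 3 were higher and 1 lower. JAZ10, a repressor of jasmonate signalling, fell from 39.8 ± 3.24 to 13.2 ± 1.02 CPM, JAZ1 rose from 5.09 ± 0.661 to 14.4 ± 2.33 CPM, and the stress factor ZAT12 was at 24.2 ± 9.88 and 7.84 ± 0.789 CPM, called lower with all libraries but not without preglobular library 3 (adjusted p = 0.0532), with preglobular library 2 alone (0.352) or on log2(TPM + 1) (0.164). TCH4, a touch-induced wall enzyme, was at 93.2 ± 24.9 and 104 ± 8.95 CPM and was not called.

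Small secreted proteins changed by large factors. Of 7 lipid transfer proteins 4 fell and 2 rose, beside 25.8% lower and 27.5% higher of all tested loci. Besides LTP3, LTP4 fell from 18.8, 6.5 and 8.2 to 0.0862, 0.172 and 0.29 CPM (log2 change −5.91, SE 0.64, adjusted p = 2e-07), and LTP12 from 0.635, 1.48 and 5.58 CPM to 0 counts, a call that DESeq2 did not make (adjusted p = 0.192). LTP2 rose from 0.317, 1.66 and 0.187 to 37.9, 26.8 and 27.4 CPM (log2 change 5.39, SE 0.50, adjusted p = 2.6e-08; 6.87 without preglobular library 2) and LTP1 from 5.67 ± 1.94 to 25.2 ± 2.01 CPM. Among 6 tested defensin-like and ESF1 peptide genes 3 fell and 2 rose, beside the same shares of all tested loci. LCR72 had 12.1, 0.314 and 20.0 CPM, high in the libraries with pollen transcripts, and 0 counts at late heart, and it was not called with library 2 alone (adjusted p = 0.229). ESF1.2, a peptide of the endosperm side that shapes the suspensor, had 13.8, 2.15 and 1.17 CPM, highest in library 1, and 0, 0.0287 and 0.0323 CPM at late heart. It was called lower with library 2 alone too (adjusted p = 2.08e-05).

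Of 8 genes used as references in expression assays, 3 were called lower and 5 were not called, while on log2(TPM + 1) 4 were called higher and 0 lower. ACT2 and UBC9 were at 177 ± 2.19 and 188 ± 10.6 CPM and at 46.8 ± 2.25 and 52.9 ± 4.24 CPM, and GAPC1 was at 2085 ± 147 and 1225 ± 86.7 CPM, called lower on counts and not on log2(TPM + 1) (adjusted p = 0.833). Of the tissue markers, 2 of 5 tested endosperm genes were called higher and 1 lower. For the seed coat, 1 of 4 tested genes was higher and 1 lower. Over all tested loci 27.5% were called higher and 25.8% lower. TTG2, listed for the seed coat, rose from 0.136 ± 0.118 to 7.82 ± 0.72 CPM, and the endosperm regulator ZOU from 0.286 ± 0.227 to 1.38 ± 0.135 CPM.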

How the data were processed

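The deposited tables hold, per transcript, estimated counts and TPM made by the authors; per the submitters' processing notes, reads were trimmed with cutadapt 1.9.1 and quantified with kallisto 0.43.1 on TAIR10. The authors' TPM values are divided by effective length, and both units were summed per locus here, leaving out spike-ins. Whether counting used strand is not given in the sources used here. Estimated counts were rounded and the 24 Smart-seq2 stage libraries (8 stages, 3 libraries each) fitted together with edgeR 4.0.16 in R 4.3.3 (filterByExpr, TMM scaling, quasi-likelihood test, Benjamini-Hochberg adjustment over all 21014 tested loci, calls at an adjusted p under 0.05); every log2 fold change, SE and adjusted p of a gene in the text comes from that test unless another is named. The contrast is late heart minus preglobular. CPM are TMM-scaled. Totals were 24653935 to 28234019 counts; intervals and floors (3 counts over a group) cover counting error only. Replicates are called biological in the labels, with no source plants named, so p-values measure the spread between these libraries.

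Members and lists were chosen with earlier results of these data known. The rule for named genes took the 14 largest called rises and falls with a symbol, a stage mean of 50 CPM or more and separate libraries, and any member of the 31 fixed lists could be named; pollen and ribosomal sets were drawn up after values were seen. Alternatives were RLE size factors, DESeq2 1.42.0, 2 other filters, limma 3.58.1 on log2(TPM + 1) and log2(TPM + 0.1), fits of 6 or 12 libraries, organelle genes left out, a 2-fold minimum, a replicate block, each library left out, and preglobular library 2 alone, the last chosen after seeing the data. Single values were compared with exact permutation tests (scipy 1.17.1). The fit was tested on simulated counts. Promoters came from RefSeq TAIR10.1; 47946 of 48145 deposited transcripts (99.6%) had the exon length of an annotated transcript of their locus.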

Additional observations from a re-analysis of the deposited data

How the results depend on the processing

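The number of loci called stayed within 1.5 times 11197 under every other setting run except the 2-fold minimum, and with each library left out (9982 to 10541). The 2-fold minimum left 3982, 2173 higher and 1809 lower. The split on log2(TPM + 1) moved to 11806 higher and 2307 lower and on log2(TPM + 0.1) to 11773 and 2200, settings that change the test, the unit and the scaling together, so the part of each was not tested. With RLE size factors it was 5257 and 5949, with DESeq2 5485 and 6173. With preglobular library 2 kept alone, an alternative chosen after seeing the data, 3690 loci were higher. The fit with the replicate number as a block called 10967 loci, and pairing was not borne out: deviations of same-numbered libraries correlated at 0.013, −0.016 and 0.032. No list changed its call count by over 1.5 times under the block.

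Counts of called members moved as follows. Under the 2-fold minimum, which asks more of each member, they were organ growth 11, root founder genes 6, vascular genes 2, stomatal lineage 3, D-type cyclins 3 (1 higher, 2 lower), cell cycle brakes 1 (0 higher, 1 lower), fatty acid and oil synthesis 3, storage proteins and oil bodies 5, maturation regulators 5, DNA methylation and demethylation 4, small RNA pathways 3, wound, touch and handling 2, seed coat markers 1, expansins 7, xyloglucan transglucosylases 5, cellulose synthases 1, tubulins 2, plastid-encoded genes 22 and mitochondrion-encoded genes 58, and 0 for auxin response core, protoderm and cuticle, mitosis, DNA replication, endosperm markers, reference genes and core histones. On log2(TPM + 1) they were protoderm and cuticle 7 (6 higher, 1 lower), mitosis 15 (15 higher, 0 lower), DNA replication 11 (11 higher, 0 lower), DNA methylation and demethylation 10 (8 higher, 2 lower), SPL genes 3 (2 higher, 1 lower), wound, touch and handling 4 (3 higher, 1 lower), seed coat markers 1, reference genes 4 (4 higher, 0 lower), core histones 4 (3 higher, 1 lower), tubulins 6 (4 higher, 2 lower) and plastid-encoded genes 116. On log2(TPM + 0.1) they were root founder genes 8, protoderm and cuticle 7 (6 higher, 1 lower), mitosis 7 (7 higher, 0 lower), DNA replication 11 (11 higher, 0 lower), DNA methylation and demethylation 10 (8 higher, 2 lower), SPL genes 3 (2 higher, 1 lower), wound, touch and handling 4 (3 higher, 1 lower), seed coat markers 1, reference genes 4 (4 higher, 0 lower), core histones 4 (3 higher, 1 lower), tubulins 6 (4 higher, 2 lower), plastid-encoded genes 117 and mitochondrion-encoded genes 67. In the fit of the 6 libraries they were auxin response core 2, mitosis 12, DNA replication 13 (7 higher, 6 lower), reference genes 6 and pollen markers 8. In the fit of 12 libraries they were auxin response core 2, mitosis 12, DNA replication 13 (7 higher, 6 lower), storage proteins and oil bodies 5 and reference genes 6. With at least 5 CPM asked in 3 libraries, which tests fewer members, they were auxin response core 1 (0 higher, 1 lower), stomatal lineage 3, cell cycle brakes 3 (1 higher, 2 lower), endosperm markers 0, pollen markers 8 and mitochondrion-encoded genes 56. By DESeq2 they were auxin response core 2 and DNA replication 7. With RLE size factors the count was auxin response core 1 (0 higher, 1 lower). With no filter on low counts it was auxin response core 0. With preglobular library 2 alone they were auxin response core 0, D-type cyclins 4, cell cycle brakes 2 (0 higher, 2 lower), mitosis 3, DNA replication 1, maturation regulators 7 (3 higher, 4 lower), wound, touch and handling 2, endosperm markers 0, pollen markers 1 (1 higher, 0 lower), xyloglucan transglucosylases 4, aquaporins 2 and plastid-encoded genes 38. With organelle genes left out, both organelle sets have 0 members tested. The late heart gain in detected loci, 1440 at a TPM of 1, was 615.7 at 0.1, where the groups overlapped (exact permutation p = 0.4), and 2769 at 5. With 1 library left out, the calls ranged from 0 to 2 for auxin response core, 3 to 4 for cell cycle brakes, 4 to 7 for mitosis, 1 to 4 for DNA replication, 2 to 3 for SPL genes, 1 to 3 for endosperm markers, 1 to 4 for seed coat markers and 3 to 5 for aquaporins. Besides the calls given above as lost with it, PHV, ATHB8, BDL, SPCH, KRP6, WRI1, SESA1, CRA1, OLEO1, FUS3, ABI5, AGL15, AGO1, SPL2 and ZOU were not called with preglobular library 2 alone (adjusted p = 0.0521 for FUS3 to 0.576 for SPCH). AHP6 and SPCH were not called in the fit of the 6 libraries (adjusted p = 0.0957 and 0.0771), SPCH and OLEO1 in the fit of 12 (0.113 and 0.0708), WRI1 by DESeq2 (0.0607), BDL and WRI1 with RLE size factors (0.066 and 0.0716), or BDL, WRI1 and SPL2 with no filter (0.0538, 0.0567 and 0.0697). Genes called lower on counts had values above 0 on log2(TPM + 1) and log2(TPM + 0.1), none of them called: PHB 0.132 and 0.138, REV 0.254 and 0.282, TMO5 0.165 and 0.173, ATML1 0.014 and 0.0142 and SPL2 0.236 and 0.292. Where no construction of the setting is named, the cause was not tested. Loci with few preglobular counts are limited by depth, and their folds move with 1 library.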

Other observations

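Most ribosomal protein genes were lower at late heart. Of 381 loci with ribosomal protein in their annotated product, a set chosen after its values were seen, 363 were tested. Of these, 287 were called lower, 44 higher and 32 were not called, beside 25.8% lower and 27.5% higher of all tested loci. The median log2 fold change was −1.01. Their share of counts was 26.6%, 26.8% and 28.1% in the preglobular libraries, 25.8%, 22.6% and 24.9% at globular, 18.7%, 19.2% and 18.4% at early heart and 17.9%, 19.1% and 19.7% at late heart, with no overlap between the ends. Of these loci, 11 are named for the bacterial-type or plastid ribosome, and 6 of the 11 were higher and 2 lower, with a median of 0.68. On log2(TPM + 1), 62 of the 363 were called higher and 169 lower, and with preglobular library 2 alone 279 were called lower and 41 higher.

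Some loci changed between near absence and a clear level. At late heart, 25 loci reached a mean of 10 CPM or more with at most 3 counts over the preglobular libraries, 12 of them with a symbol, among them HB22, a zinc finger homeodomain gene with 0 counts at preglobular and a level at least 309-fold higher at late heart, and GNC, a regulator of greening, with 3 counts at preglobular and 10.4 CPM at late heart. In the other direction there were 41 loci, and 21 of these stood more than 10-fold higher in preglobular libraries 1 and 3 than in library 2. RALFL8 and RALFL9, small signalling peptides, are among these 21: RALFL8 stood at 40.9, 0.224 and 63.9 CPM in preglobular libraries 1 to 3 and RALFL9 at 34.1, 0.314 and 48.4 CPM, with 2 and 3 counts at late heart. HSP23.6-MITO, a mitochondrial small heat shock protein, stood at 11.1 CPM and had 1 count at late heart. These loci were picked by their values and carry no test here.

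Abundant loci without a symbol also fell. AT4G33145 stood at 1962, 2860 and 3799 CPM in preglobular libraries 1 to 3, at a mean of 730 CPM at globular and 205 CPM at early heart, and at 59.0, 86.8 and 115 CPM at late heart. AT3G24250 had means of 12120 and 3288 CPM at the ends. AT3G41768, a locus of 18S ribosomal RNA, had means of 24150, 6996, 8053 and 7781 CPM from preglobular to late heart, and it enters the totals that CPM and TPM divide by.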
